A study of Mus musculus with 24 samples.

Results

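The 38 genes described here are type I interferon-stimulated genes, chosen by name from a fixed list of antiviral and interferon-induced genes, among 38887 genes in the count table. RNA was sequenced from mouse dendritic cells grown from bone marrow, and the study asked how IRE1α, the endoplasmic reticulum stress sensor encoded by Ern1, shapes their gene expression. By their labels the cells carried either wild type (WT) or knockout (KO) IRE1α, and each genotype was left untreated, given zymosan (a yeast cell wall preparation) or given lipopolysaccharide (LPS, a bacterial outer membrane component), which makes 6 groups of 4 replicates and 24 samples. The labels give no mouse strain, age, deleting allele, dose or duration of stimulation, so the groups are named here only by genotype label and treatment. Nor is it stated if replicates came from different mice or cultures, and the p-values therefore reflect only the spread among these libraries, which may be partly technical. All 38 genes were in the table and all 38 passed the filter on low counts, which 14188 genes passed.

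Type I interferons are secreted cytokines that cells make when their sensors detect microbes. They bind a receptor of the subunits Ifnar1 and Ifnar2, and the kinases Jak1 and Tyk2 then activate transcription factors, among them Stat2, which with Irf9 is part of the complex ISGF3. ISGF3 binds the interferon-stimulated response element in promoters of genes such as those described here, whose products sense viral nucleic acid, block viral replication and tune the interferon signal itself. In dendritic cells and macrophages, LPS acts through Tlr4, whose adaptor Ticam1 leads to the transcription factor Irf3 and to interferon beta, while zymosan is recognised by Clec7a and by Toll-like receptors on the cell surface.

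The promoters of several of these genes carry the response element in plain letters. A core of GAAA, any 2 bases and GAAA was searched on both strands in the 250 bases before each annotated start in RefSeq (build GRCm38.p6). A longer form, with any 2 bases and a further GAAA after the core, holds overlapping copies of the core and was searched in the same way. RefSeq promoters were at hand for 28 of the 38 genes, in 32 windows. The core was present in 12 genes and in 37.5% of these windows, against 2.98% of all 32851 promoter windows, and the longer form was present in 4 genes and in 12.5% of the windows, against 0.0913% of all. These are descriptions of letters with no test. The genes with the longer form were Isg15, Bst2, Oas1a and Oas1g, and those with the core alone were Ifit1, Ifit3, Ifit3b, Oas3, Rsad2, Trim30a, Ifi205 and Phf11b. Cmpk2, Ddx58, Eif2ak2, Herc6, Ifi35, Ifi44, Ifih1, Ifit2, Ifitm3, Isg20, Lgals3bp, Oasl1, Oasl2, Samd9l, Trim25 and Xaf1 had no match in this window, and Dhx58, Zbp1, Oas2, Mx1, Mx2, Usp18, Ifi204, Parp14, Rtp4 and Tor3a had no window.

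The 200 bases before the start are printed for 7 genes with a match, 5′ to 3′ on the gene's own strand and ending at the base before the start. They are the genes with the longer form, the neighbours Ifit3 and Ifit3b, and Rsad2. Whether a match goes with a larger response was not tested. Capitals mark every match of the core, which reads TTTC, any 2 bases and TTTC where it lies on the opposite strand. The windows are chr4:156200819-156201018 (- strand) for Isg15, chr8:71537473-71537672 (- strand) for Bst2, chr5:120907526-120907725 (- strand) for Oas1a, chr5:120887614-120887813 (- strand) for Oas1g, chr19:34583329-34583528 (+ strand) for Ifit3, chr19:34607757-34607956 (+ strand) for Ifit3b and chr12:26456453-26456652 (- strand) for Rsad2.
Isg15: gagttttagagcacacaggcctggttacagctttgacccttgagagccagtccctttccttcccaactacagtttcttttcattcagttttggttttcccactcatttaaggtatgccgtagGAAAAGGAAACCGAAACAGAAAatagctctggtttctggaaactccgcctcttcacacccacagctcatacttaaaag
Bst2: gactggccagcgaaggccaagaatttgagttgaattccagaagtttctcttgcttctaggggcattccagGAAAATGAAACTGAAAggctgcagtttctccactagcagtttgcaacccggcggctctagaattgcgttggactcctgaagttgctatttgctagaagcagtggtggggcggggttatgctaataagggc
Oas1a: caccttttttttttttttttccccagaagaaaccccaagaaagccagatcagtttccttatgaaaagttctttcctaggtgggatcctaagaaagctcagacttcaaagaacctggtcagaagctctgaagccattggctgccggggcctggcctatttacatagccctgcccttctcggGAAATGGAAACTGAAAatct
Oas1g: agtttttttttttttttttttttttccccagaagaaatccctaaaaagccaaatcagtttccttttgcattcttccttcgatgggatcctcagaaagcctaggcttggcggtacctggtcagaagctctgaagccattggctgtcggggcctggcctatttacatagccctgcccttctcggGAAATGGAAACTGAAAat
Ifit3: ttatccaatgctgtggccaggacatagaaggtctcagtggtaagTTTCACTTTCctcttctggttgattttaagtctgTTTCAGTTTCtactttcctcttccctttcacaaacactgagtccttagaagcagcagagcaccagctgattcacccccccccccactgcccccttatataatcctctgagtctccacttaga
Ifit3b: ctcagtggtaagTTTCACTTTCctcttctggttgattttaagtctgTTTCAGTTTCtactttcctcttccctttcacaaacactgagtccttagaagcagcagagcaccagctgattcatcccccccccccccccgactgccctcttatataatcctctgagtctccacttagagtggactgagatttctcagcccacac
Rsad2: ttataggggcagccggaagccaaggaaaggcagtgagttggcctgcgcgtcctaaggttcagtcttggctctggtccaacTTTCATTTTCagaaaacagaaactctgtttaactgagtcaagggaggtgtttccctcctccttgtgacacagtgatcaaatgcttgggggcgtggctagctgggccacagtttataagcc

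In Isg15 the matches ran together over 3 copies of the core, the nearest ending 57 bases before the start. In Oas1a and Oas1g the same 16 letters lay almost at the start, and their windows shared an unbroken run of 56 bases. Ifit3 and Ifit3b each had 2 cores on the opposite strand, and their windows shared a run of 119 of 200 bases. The plot of core positions places all 12 genes on a common scale.

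**Figure D1:**
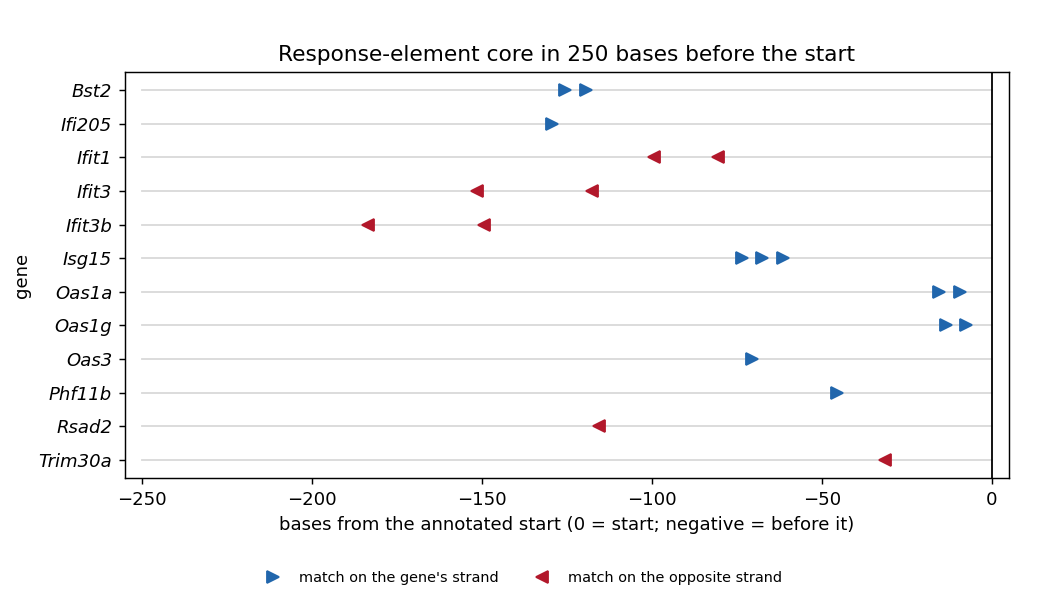
Position of each match of the response-element core in the 250 bases before the annotated start, for the 12 genes with a match. The horizontal axis is bases from the start, triangles point right for the gene's strand and left for the opposite strand. Matches lie nearest the start in Oas1a and Oas1g and farthest from it in Ifit3b, whose first match begins 188 bases before the start.

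Libraries held 32223256 to 46927434 counts. Ern1 mRNA was not lower in the cells labelled KO: its mean levels in CPM (counts scaled to a common effective library size) were 41.6, 30.2 and 28.5 in WT cells that were untreated, given zymosan and given LPS, and 51.4, 37.4 and 39.3 in the cells labelled KO. Counts over a whole gene can miss the loss of an exon, and Ern1 is therefore no check of the genotype, so KO stands for that label throughout. The dendritic cell marker Itgax was at group means of 1051 to 1309 CPM, but Flt3 was at 0.931 to 2.34 CPM, and Cd209a was below the filter. Macrophage markers were also present, with Adgre1 at group means of 154 to 289 CPM. Siglech, a defining marker of plasmacytoid dendritic cells, which are known as strong interferon producers, was at group means of 0 to 0.0275 CPM, but the 7 listed markers of these cells summed to 37.4 to 39.5 CPM in untreated and 94.6 to 107 CPM in LPS-treated WT samples, most of it Tcf4 (group means of up to 94.1 CPM). Of the 6 tested, 3 were called higher and 1 lower with LPS in WT cells (35.9% and 39.7% of all tested genes). In untreated KO against WT samples 3 were called higher (4.31% of all tested genes). The part of these markers in the results was not tested. A further 8 listed markers of T, B and NK cells summed to at most 1.77 CPM. Eosinophil markers differed by genotype label: 9 genes summed to 835 to 1271 CPM in WT samples and to 47.6 to 62.3 CPM in KO samples. Replicates 1 and 2 of a group, and replicates 3 and 4, were closer to each other than to the rest (chi-square per gene 1.91 to 8.03 within these pairs, 6.57 to 23.8 between them) in every group but WT LPS, where replicate 3 was nearer to replicate 2 (6.57) than to replicate 4 (8.03), and values within each pair are given where a result differs between them.

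Both stimuli raised every gene of the list in WT cells. A gene was called at an adjusted p under 0.05 (edgeR quasi-likelihood test, Benjamini-Hochberg over all genes tested). With zymosan 38 of 38 were called higher, where 34.3% of all tested genes were, and with LPS again 38 of 38, where 35.9% were. The median log2 fold change over the 38 was 3.40 with zymosan (range 1.25 to 6.73) and 4.05 with LPS (1.32 to 7.86), beside -0.01 and -0.04 over all tested genes. The 38 genes together took 0.250% ± 0.0237 (SD, n = 4) of all counts in untreated WT cells, 1.73% ± 0.0720 with zymosan and 2.89% ± 0.101 with LPS. In bulk RNA, more responding cells and more RNA per cell cannot be told apart.

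**Figure D2:**
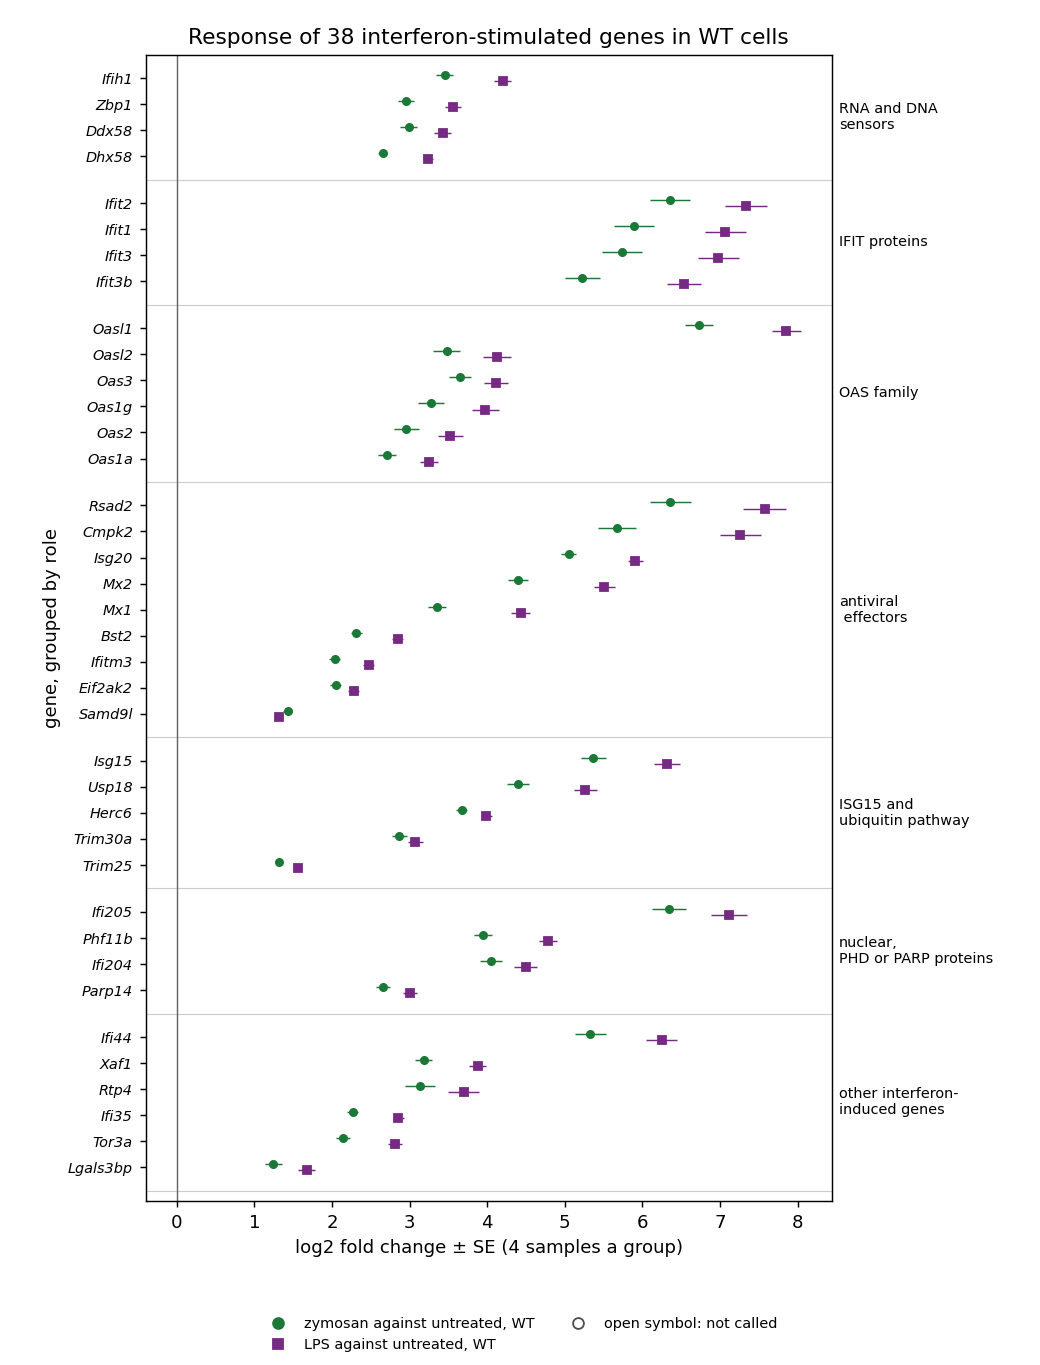
Log2 fold change with its SE for each of the 38 genes in WT cells, zymosan (circles) and LPS (squares) against untreated, grouped by role and ordered by the LPS value, 4 samples a group. Every symbol lies to the right of 0, from 1.25 for Lgals3bp with zymosan to 7.86 for Oasl1 with LPS.

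The 4 IFIT genes, whose proteins bind foreign RNA and block its translation, lay side by side on chromosome 19 and rose by 5.22 to 6.36 with zymosan and 6.54 to 7.33 with LPS on the log2 scale. Ifit2 had 11.7, 12.5, 14.6 and 28.6 CPM in untreated WT cells, 1248, 1446, 1374 and 1483 with zymosan and 2771, 2441, 2828 and 2860.3 with LPS, in the order of replicates 1 to 4. Every stimulated sample was far above every untreated one, and every LPS sample above every zymosan one, a change of 6.36 ± 0.26 with zymosan (adjusted p 5.24e-17) and 7.33 ± 0.27 with LPS (adjusted p 3.1e-18; log2 ± SE here and below). Ifit1, which recognises RNA caps that lack a host mark, went from 7.21, 9.49, 9.89 and 19.6 CPM untreated to 655, 757, 659.6 and 696 with zymosan and 1503, 1399.8, 1642 and 1710.2 with LPS. Its untreated replicate 4 was the highest of that group, and no groups overlapped. Ifit3, a partner of Ifit1, was at 4.80 to 13.7 CPM untreated and 944 to 1082 CPM with LPS.

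The OAS genes encode synthetases of short adenylate chains that switch on an RNA-degrading enzyme, and their relatives. Oas1a, Oas1g, Oas2 and Oas3 rose by 2.71 to 3.65 with zymosan and 3.25 to 4.11 with LPS. The largest LPS response of all 38 genes was that of Oasl1, a family member without synthetase activity that holds back Irf7 translation: 2.72, 3.29, 4.12 and 5.50 CPM untreated, 404, 470.4, 382 and 419 with zymosan and 936, 838, 878 and 996 with LPS. That is a 232-fold rise with LPS (7.86 ± 0.19, adjusted p 6.17e-22) and a 106-fold rise with zymosan. Its neighbour Oasl2, which has kept synthetase activity, went from 42.4, 39.0, 56.8 and 61.3 CPM to 529, 587, 535 and 574 and 891, 858, 841 and 889. Oasl2 thus started higher than Oasl1 and rose less (4.12 ± 0.18 with LPS), on the same scale of CPM, which is not corrected for length.

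The antiviral effectors had the widest range. Rsad2 (viperin), which makes a chain-terminating nucleotide, and Cmpk2, a mitochondrial nucleotide kinase, are head-to-head neighbours on chromosome 12 with starts 12752 bases apart. Rsad2 was at 15.7, 20.9, 21.9 and 39.7 CPM untreated, 1821, 2178, 1952 and 2138 with zymosan and 4785, 4191, 4817 and 5042 with LPS. Cmpk2 was at 6.46, 8.89, 9.59 and 16.5, 466, 551, 515 and 598 and 1589.8, 1363, 1603 and 1854 CPM in the same order. In both genes untreated replicate 4 was the highest of its group and no groups overlapped, with LPS responses of 7.58 ± 0.28 and 7.26 ± 0.26. Isg20, an exonuclease, rose by 5.91 ± 0.10 with LPS, and the dynamin-like GTPases Mx2 and Mx1 rose by 5.51 ± 0.14 and 4.43 ± 0.12. Bst2 (tetherin), which ties budding virus to the cell, rose by 2.84 ± 0.08, and Ifitm3, which blocks viral fusion in endosomes, by 2.48 ± 0.07. Eif2ak2, the RNA-activated kinase PKR that stops translation, rose by 2.28 ± 0.07. Samd9l, another translation inhibitor, had the smallest LPS response of the list: 287, 278, 266 and 254 CPM untreated, 756, 746, 732 and 691 with zymosan and 666, 646, 738 and 652 with LPS, a rise of 1.32 ± 0.06 with LPS and 1.43 ± 0.06 with zymosan.

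Isg15, a ubiquitin-like protein attached to other proteins, was at 16.3, 16.1, 23.5 and 26.0 CPM untreated, 824, 919, 818 and 834 with zymosan and 1682, 1525, 1636 and 1700.4 with LPS. The rise with LPS was 79.7-fold (6.32 ± 0.17, adjusted p 8.43e-21, edgeR). Usp18, which removes Isg15 and damps receptor signalling, was at 18.3, 20.5, 21.8 and 26.7, 461, 523, 413 and 443 and 843, 769.7, 839 and 918 CPM in the same order. Herc6, an Isg15 ligase, rose by 3.99 ± 0.07 with LPS, Trim30a by 3.08 ± 0.10 and Trim25, a ubiquitin ligase that acts on the sensor Ddx58, by 1.56 ± 0.04.

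Among the sensors, Ifih1 (MDA5, a sensor of long double-stranded RNA) was at 28.6, 29.0, 32.8 and 33.4 CPM untreated, 314, 338, 350.3 and 355 with zymosan and 555, 517, 602 and 599 with LPS. Zbp1, a sensor of left-handed nucleic acid, was at 41.0, 40.5, 49.8 and 52.2, 341, 375, 339.9 and 361 and 548, 535, 521 and 555 CPM. No groups overlapped in either gene. Ddx58 (RIG-I) and Dhx58 (LGP2), its relative without a signalling domain, rose by 3.43 ± 0.11 and 3.23 ± 0.06 with LPS.

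The nuclear proteins included 2 of the DNA-binding HIN family. Ifi205 rose from 4.62, 4.63, 6.96 and 7.32 CPM to 397, 484, 506 and 528 with zymosan and 812, 745, 857 and 864 with LPS, and Ifi204 rose by 4.50 ± 0.15 with LPS. Phf11b, a PHD-finger protein, went from 13.7, 14.8, 17.8 and 18.8 CPM to 235, 264, 247 and 261 and 461, 433, 457 and 449. Parp14, an ADP-ribosyl transferase, rose by 3.01 ± 0.09.

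Of the remaining genes, Ifi44 went from 2.32, 2.69, 4.03 and 4.52 CPM untreated to 119.9, 139.6, 139 and 149 with zymosan and 279, 248, 264 and 247 with LPS, and Xaf1, which binds an apoptosis inhibitor, from 13.1, 13.3, 16.6 and 18.1 CPM to 129, 144, 140.0 and 143 and 234, 217, 221 and 226. Rtp4, a receptor chaperone, rose by 3.70 ± 0.20 with LPS, Ifi35 by 2.86 ± 0.07 and the torsin Tor3a by 2.81 ± 0.09. Lgals3bp, a secreted galectin-binding glycoprotein, had the smallest zymosan response of the list, from 325, 304, 434 and 452 CPM untreated to 794, 882, 918 and 999 (1.25 ± 0.11).

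Levels can be compared between genes only per length. In CPM per kilobase of exon, the most abundant genes with LPS in WT cells were Isg15 at 2164, Ifitm3 at 1569.8, Rsad2 at 1086 and Bst2 at 1009, and the least abundant was Oas2 at 29.3. In untreated cells the order was led by Ifitm3 at 282, Bst2 at 140.4 and Lgals3bp at 133 CPM per kilobase, while Oasl1 was at 1.50 and Ifit3b at 0.482. Ifitm3, Bst2 and Lgals3bp were thus high before stimulation and had small fold changes, whereas Rsad2 started at 5.66 CPM per kilobase.

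The KO samples also raised the whole list. With zymosan 38 of 38 genes were called higher (31.6% of all tested genes) and with LPS 38 of 38 (34.4%), with median log2 fold changes of 3.33 and 3.82. The share of all counts in the 38 genes was 0.247% untreated (samples 0.218 to 0.287%), 1.57% with zymosan (1.45 to 1.71%) and 2.27% with LPS (2.15 to 2.40%). Untreated shares overlapped those of WT samples, and the LPS shares did not, since WT samples lay at 2.75 to 2.96%.

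**Figure D3:**
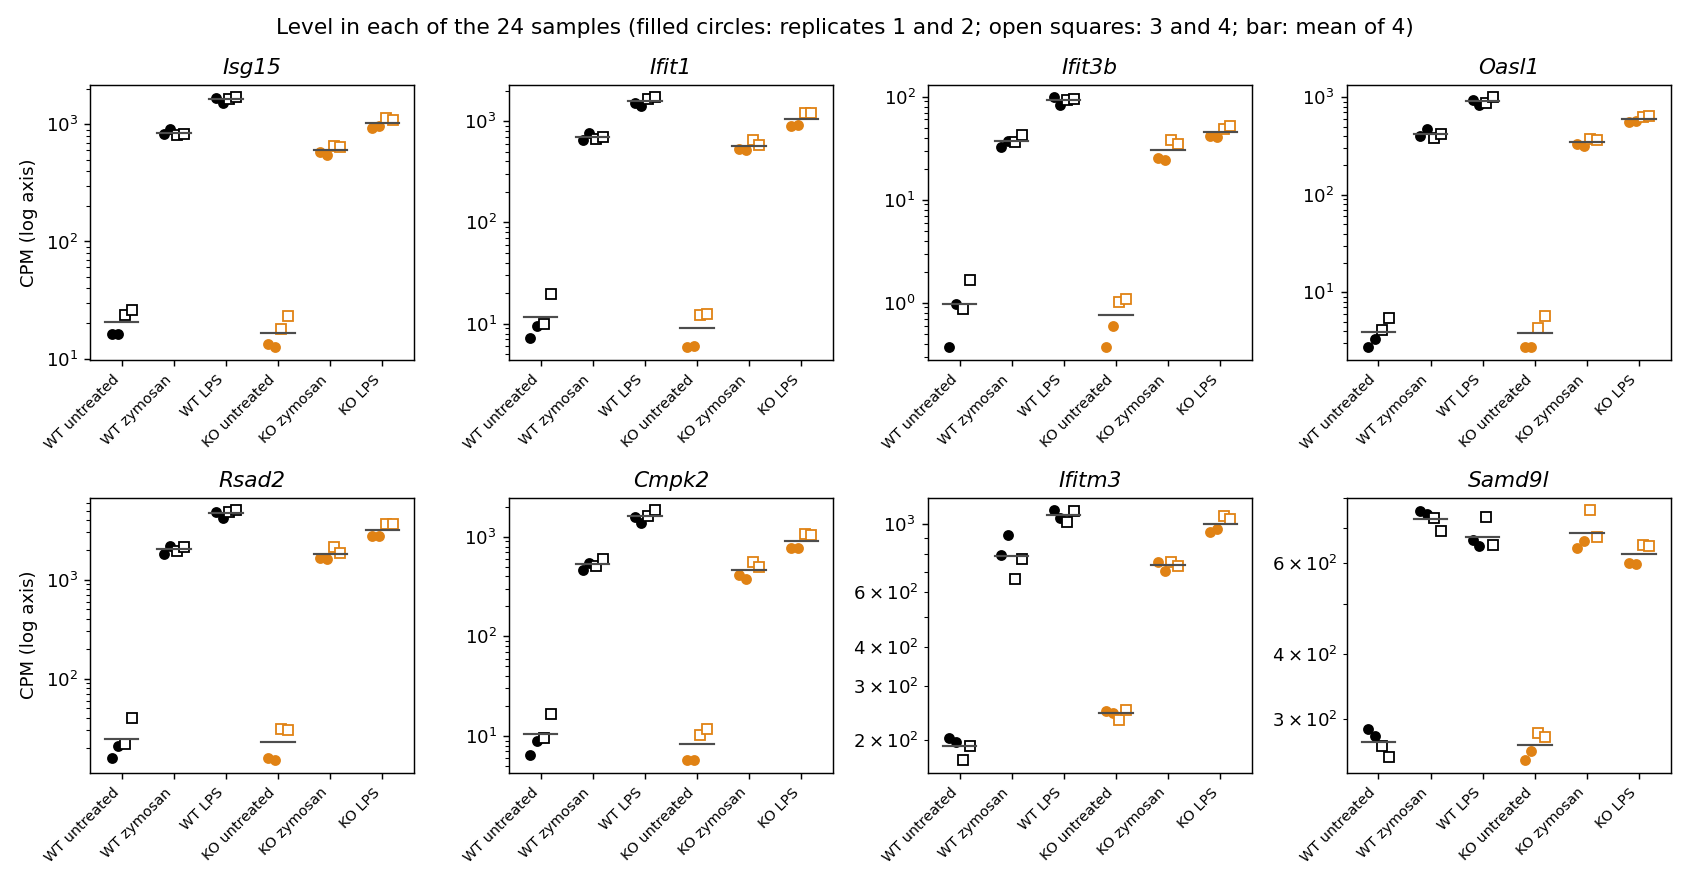
CPM on a log axis in each of the 24 samples for 8 genes, with WT in black, KO in orange, filled circles for replicates 1 and 2, open squares for replicates 3 and 4 and a bar at the mean of 4. In Isg15, Ifit1, Ifit3b, Oasl1, Rsad2 and Cmpk2 the LPS samples of WT lie above those of KO, and in Samd9l the LPS samples of each genotype do not lie above the zymosan samples.

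LPS gave the larger response of the 2 stimuli for nearly the whole list. In the direct comparison of LPS with zymosan in WT cells, 36 of 38 genes were called higher with LPS and 0 lower, where 21.9% of all tested genes were called higher. The median log2 difference was 0.66 (range -0.11 to 1.59), beside -0.02 over all tested genes. For 37 genes every LPS sample exceeded every zymosan sample, which held for 20.7% of all tested genes. The role groups differed in size, with medians of 1.21 for the IFIT genes, 0.86 for the effectors, 0.63 for the other induced genes, 0.61 for the OAS and the nuclear genes, 0.59 for the sensors and 0.32 for the Isg15 pathway.

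The largest difference was that of Cmpk2, 3.01-fold (1.59 ± 0.20, adjusted p 4.17e-07), from the values given above. Ifit3b came next (1.31 ± 0.15), with 32.2, 36.8, 36.4 and 42.2 CPM under zymosan and 98.2, 82.5, 92.8 and 94.1 under LPS, after 0.376, 0.972, 0.862 and 1.65 CPM in untreated cells. The lowest LPS sample of Ifit3b, at 82.5 CPM, lay far above the highest zymosan sample, at 42.2 CPM. Ifit3 (1.24 ± 0.20), Rsad2 (1.22 ± 0.21), Ifit1 (1.18 ± 0.20), Oasl1 (1.12 ± 0.13), Mx2 (1.11 ± 0.10) and Mx1 (1.08 ± 0.11) also differed by more than 1 on the log2 scale.

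The 2 genes that were not called were Samd9l and Trim30a. Samd9l had the only negative value, -0.11 (95% interval -0.23 to 0.00, adjusted p 0.0993), and its LPS and zymosan samples overlapped. Without LPS replicate 3 of WT, its highest LPS sample, Samd9l was called lower with LPS (-0.16, adjusted p 0.0269, edgeR). Trim30a had 807, 822, 780.0 and 780.0 CPM with zymosan and 907, 899, 969.9 and 910.0 with LPS, a difference of 0.21 (95% interval 0.02 to 0.40, adjusted p 0.0634). Its LPS samples all lay above its zymosan samples, by a small margin.

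In KO samples 31 of 38 genes were called higher with LPS than with zymosan and 0 lower, where 20.0% of all tested genes were called higher, and the groups did not overlap for 32 genes (18.1% of all tested genes). The median log2 difference was 0.48. With each replicate pair summed to 1 sample 19 genes were called, where 11.7% of all tested genes were called higher. The calls of Ddx58, Ifit2, Oas2, Eif2ak2 and Trim30a ended when 1 library was left out. Genes not called were Samd9l, Oas3, Ifi204, Ifi205, Parp14, Rtp4 and Lgals3bp. Cmpk2 again had the largest value (0.99 ± 0.20), followed by Ifit1 (0.88 ± 0.20) and Isg20 (0.83 ± 0.08). Whether the difference between stimuli itself differed by genotype label was tested as an interaction, a comparison added after seeing the data: 0 of 38 genes were called by edgeR or DESeq2, where 0.839% of all tested genes were called lower and 0.634% higher in the edgeR fit. At an unadjusted p under 0.05, 8 of the 38 were lower and 1 higher. The largest such value was that of Ifit3b (-0.73 ± 0.21, adjusted p 0.079). A term for replicate pairs in the model gave 5 genes called lower. Replicates 1 and 2 alone gave 11 lower and 1 higher (6.28% and 5.34% of all tested genes), and replicates 3 and 4 alone 8 lower (2.83%). Summed replicate pairs gave 0, beside 0% of all tested genes, so the count depends on how replicates are treated.

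**Figure D4:**
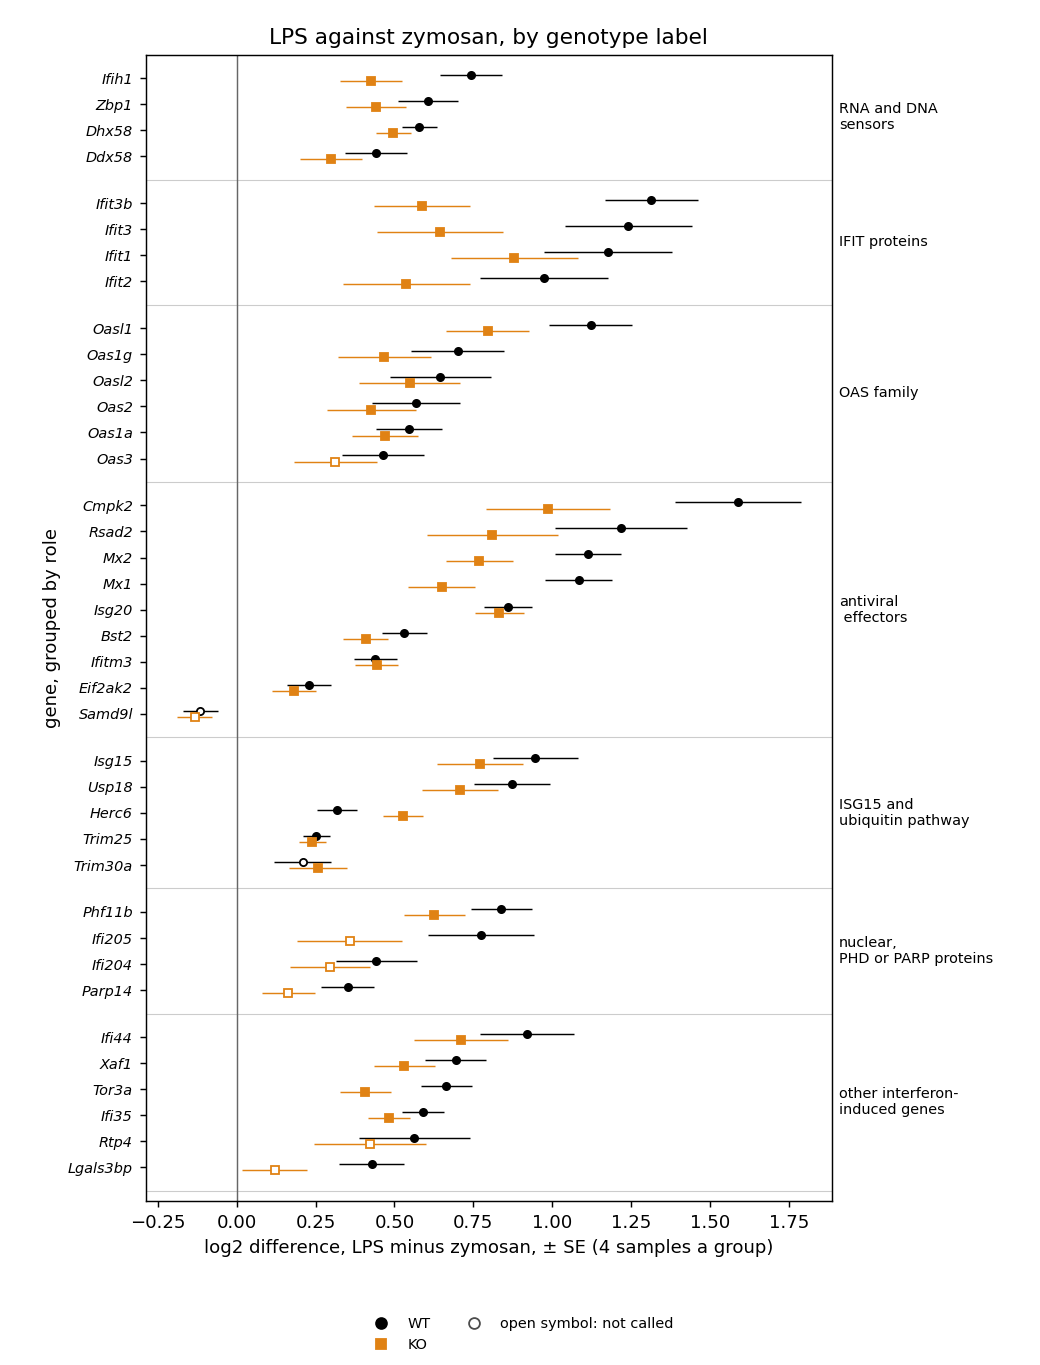
Log2 difference between LPS and zymosan with its SE for each gene, WT (black circles) and KO (orange squares), 4 samples a group, with open symbols for genes not called. WT values run from -0.11 for Samd9l to 1.59 for Cmpk2, and the IFIT genes stand farthest to the right as a group.

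Between genotype labels in untreated cells, 1 gene was called higher in KO samples (4.31% of all tested genes were) and 1 lower (5.64%). Ifitm3 was higher, with 203, 198, 173 and 191 CPM in WT and 249.6, 245, 232 and 250.1 in KO samples, groups that did not overlap (0.35 ± 0.07, adjusted p 0.000801). Trim25 was lower, with 119, 111, 106 and 115 CPM in WT and 98.3, 98.5, 102 and 107 in KO samples, groups that overlapped by little, since the highest KO sample was just above the lowest WT sample (-0.15 ± 0.04, adjusted p 0.0205). Leaving out untreated WT replicate 1 or 4, or untreated KO replicate 1 or 2, ended the Trim25 call, and without untreated KO replicate 4 the count of genes called lower was 9. With 2 samples a group, replicates 1 and 2 alone gave 16 genes lower and 4 higher (median -0.19), beside 11.9% and 11.2% of all tested genes. In replicates 3 and 4 alone 0 were lower and 5 higher (median -0.04), beside 4.93% and 4.48%. Replicates 3 and 4 were both above replicates 1 and 2 for 31 of 38 genes in untreated WT and 36 of 38 in untreated KO cells, beside 27.1% and 32.5% of all tested genes. In stimulated KO cells this held for 36 genes with zymosan (29.5% of all tested genes) and 32 with LPS (30.4%), and in stimulated WT cells for 6 with zymosan (27.7%) and 14 with LPS (20.9%).

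With zymosan, 7 of 38 genes were called lower in KO samples and 0 higher, where 11.4% of all tested genes were called lower. All 38 values were below 0, with a median of -0.18, and the groups did not overlap for 13 genes (11.0% of all tested genes). Isg15 had the largest called value, with 824, 919, 818 and 834 CPM in WT and 581, 553, 653 and 637 in KO samples (-0.49 ± 0.13, 1.40-fold lower, adjusted p 0.0106). Isg20 had 164, 203, 152 and 167 CPM in WT and 116, 112, 139 and 134 in KO samples (-0.46 ± 0.08, adjusted p 0.000101). In both genes the highest KO sample lay below the lowest WT sample.

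Herc6 had 374, 394, 330.0 and 324 CPM in WT and 263, 264, 291 and 269 in KO samples under zymosan (-0.39 ± 0.06, adjusted p 8.24e-05). Bst2 had 636, 660.2, 604 and 621 CPM in WT and 489, 471, 500.0 and 538 in KO samples (-0.34 ± 0.07). No WT sample of either gene was as low as a KO sample. Trim25 (-0.19 ± 0.04), Ifi35 (-0.19 ± 0.07) and Dhx58 (-0.18 ± 0.06) were the other genes called, and the calls of Ifi35 and Dhx58 ended when 1 library was left out. The IFIT and OAS genes were not among those called under zymosan, and their 10 values ranged from -0.39 to -0.07. Within replicates 1 and 2 all 38 values were below 0 with a median of -0.28 and 35 genes called lower (17.8% of all tested genes). Within replicates 3 and 4 34 values were, with a median of -0.05 and 6 genes called (7.96%). With replicate pairs summed 2 genes were called, Isg20 and Herc6, where 4.12% of all tested genes were called lower. With only the 2 groups compared in the fit 14 were.

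With LPS the list was lower in KO samples in a larger part. Called lower were 27 of 38 genes and called higher 0, where 18.2% of all tested genes were called lower. All 38 values were below 0, from -1.01 to -0.07 with a median of -0.35, beside 0.01 over all tested genes, and the groups did not overlap for 35 genes (19.1% of all tested genes). The IFIT genes had the lowest median (-0.69, 4 of 4 called) and the Isg15 pathway the highest (-0.20, 4 of 5 called). Of the sensors 4 of 4 were called, of the effectors 6 of 9, of the OAS genes 2 of 6, of the nuclear genes 3 of 4 and of the other genes 4 of 6. DESeq2 called 24 of 38 lower, without Ifit1 (adjusted p 0.0904), Ifit2 (0.0993), Rsad2 and Ifi205 and with Oas1a added.

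Ifit3b had 98.2, 82.5, 92.8 and 94.1 CPM in WT and 41.2, 40.6, 49.0 and 52.3 in KO samples with LPS, a 2.01-fold lower mean (-1.01 ± 0.15, adjusted p 9.67e-06). Cmpk2 had 1589.8, 1363, 1603 and 1854 CPM in WT and 769.7, 776, 1062 and 1044 in KO samples (-0.81 ± 0.20, adjusted p 0.00224). For both genes every KO sample was below every WT sample, and KO replicates 3 and 4 were the higher ones. Ifit3 had 1082, 944, 1023 and 1073 CPM in WT and 525, 542, 656 and 650.1 in KO samples (-0.80 ± 0.20, adjusted p 0.00301). Isg15 had 1682, 1525, 1636 and 1700.4 CPM in WT and 936, 972, 1138 and 1094 in KO samples (-0.66 ± 0.13, 1.58-fold lower, adjusted p 0.000487).

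Oasl1 had 936, 838, 878 and 996 CPM in WT and 559.8, 576, 634 and 638 in KO samples with LPS (-0.60 ± 0.13), and Ifit1 had 1503, 1399.8, 1642 and 1710.2 and 892, 908, 1196 and 1198 (-0.58 ± 0.20, adjusted p 0.0285). The groups did not overlap in either gene, but the call of Ifit1 ended when 1 library was left out, as did those of Ddx58, Ifit2, Rsad2, Usp18, Herc6 and Ifi205. Genes not called were Oas1a, Oas1g, Oas3, Oasl2, Eif2ak2, Ifitm3, Samd9l, Trim30a, Ifi204, Rtp4 and Ifi44. Trim30a had the value nearest 0 (-0.07, 95% interval -0.26 to 0.12). When each replicate pair was summed and counted as 1 sample, 6 genes were called lower: Ifit3b, Mx1, Mx2, Isg20, Bst2 and Trim25. In that setting 8.12% of all tested genes were called lower, beside 18.2% in the main fit. All 38 values were below 0 within replicates 1 and 2 (median -0.40) and within replicates 3 and 4 (median -0.30).

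Other measures moved with the genotype label. The eosinophil markers named above were lower in KO samples, with 8 of 8 tested markers called lower under LPS (18.2% of all tested genes). The 10 listed macrophage markers summed to 2270 to 2426 CPM in WT and 1519 to 1589 CPM in KO samples with LPS. Of the 9 tested, 8 were called lower and 1 higher (18.2% and 15.6% of all tested genes). With zymosan the macrophage sums were 1563 to 1772 CPM in WT and 1334 to 1536 CPM in KO samples. Other lists were higher in KO samples with LPS. The 10 conventional dendritic cell markers summed to 4284 to 4569 CPM in WT and 4696 to 5049 CPM in KO samples. The 9 neutrophil markers summed to 1271 to 1362 and 1593 to 1783 CPM. Of 9 tested dendritic cell markers 4 were called higher and 1 lower, and of 9 neutrophil markers 4 higher and 2 lower. The part of all these markers in the genotype differences of the interferon-stimulated genes was not tested.

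**Figure D5:**
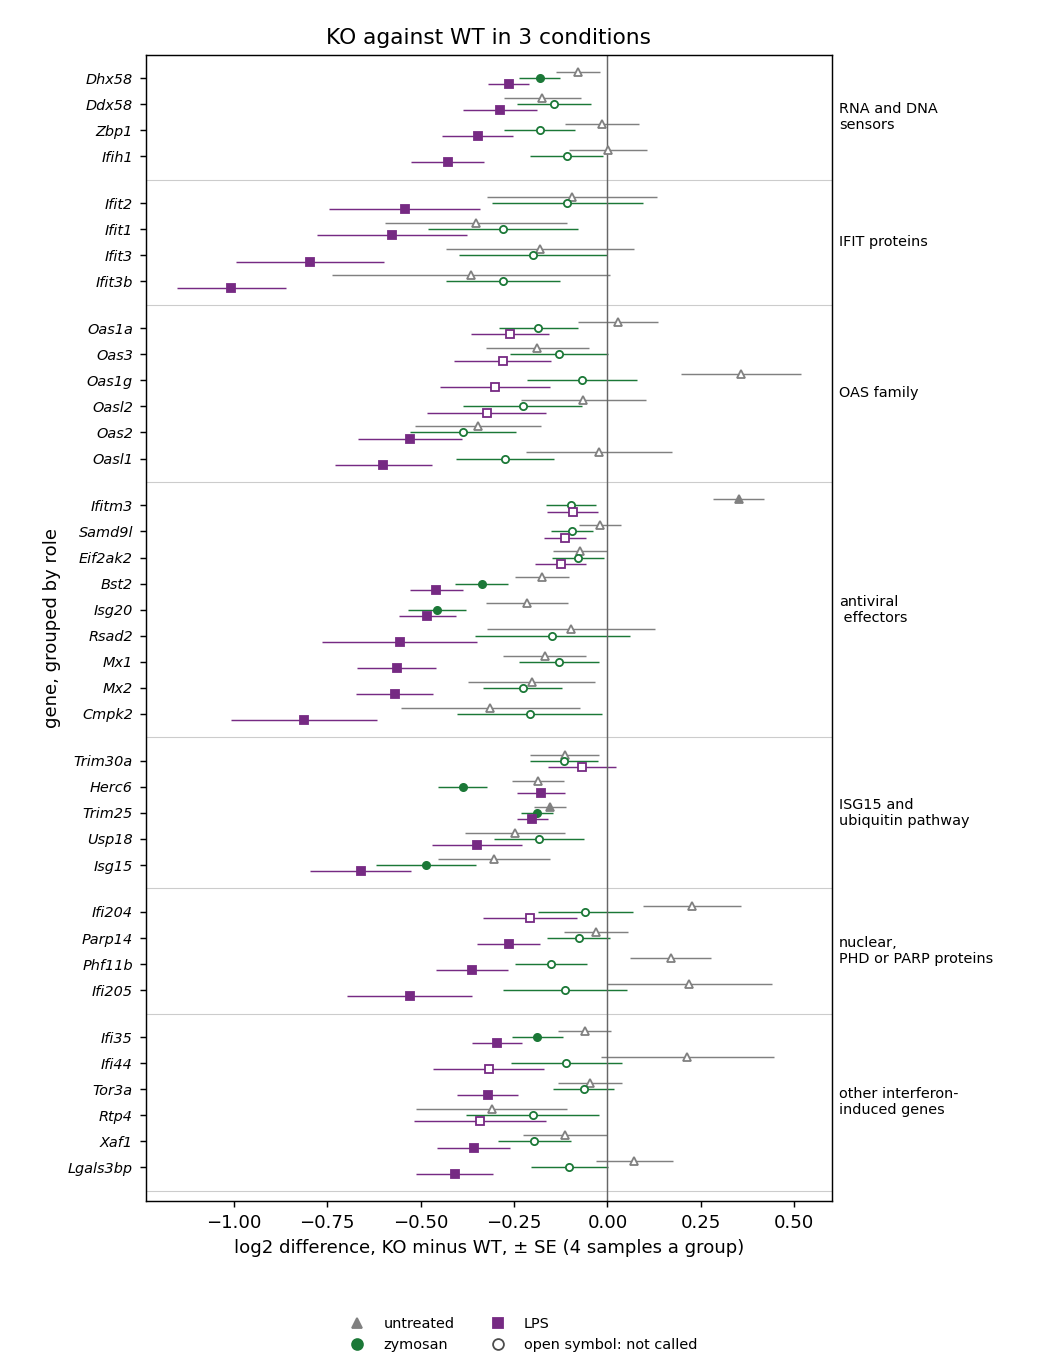
Log2 difference between KO and WT samples with its SE for each gene in untreated cells (grey triangles), with zymosan (green circles) and with LPS (purple squares), 4 samples a group, open where not called. With LPS all 38 symbols lie left of 0, down to -1.01 for Ifit3b, and the only filled symbol right of 0 is Ifitm3 in untreated cells at 0.35.

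Whether the response itself differed between genotype labels was tested as an interaction, and the count of calls depended on how replicates were treated. For the zymosan response 1 of 38 genes was called smaller in KO samples and 0 larger, where 0.846% of all tested genes were called smaller. For the LPS response 3 of 38 were called smaller and 0 larger, where 5.84% of all tested genes were called smaller, and 36 of 38 values were below 0 with a median of -0.29. Ifitm3 was called for both stimuli, at -0.45 ± 0.10 (adjusted p 0.0131) for zymosan and -0.44 ± 0.10 (adjusted p 0.00433) for LPS. With zymosan it had 791, 918, 663 and 768 CPM in WT and 749.9, 702, 750.0 and 732 in KO samples, and with LPS 1105, 1042, 1015 and 1095 and 943, 958, 1058 and 1032. Stimulated levels of Ifitm3 overlapped between genotype labels, and the untreated level was the one called different. Its zymosan call ended with replicate pairs summed (adjusted p 0.626), in replicates 3 and 4 alone (0.0782) and with only the groups compared in the edgeR fit (0.0565), and its LPS call with replicate pairs summed (0.215). With pairs summed, 0% of all tested genes were called smaller for zymosan and 0.0282% for LPS, so an ended call there says little. For the LPS response the replicate block gave 12 genes called smaller (9.56% of all tested genes). The block nested in genotype gave 10 and a term for replicate pairs 12. Replicates 1 and 2 alone gave 17 (11.2%), replicates 3 and 4 alone 13 (7.02%) and summed pairs 0 (0.0282%).

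Phf11b (-0.53 ± 0.15, adjusted p 0.0201) and Lgals3bp (-0.48 ± 0.15, adjusted p 0.0359) were called for the LPS response. Phf11b had 16.4, 15.6, 21.04 and 20.4 CPM in untreated and 315, 329.7, 379 and 376 in LPS-treated KO samples, beside the WT values above. Lgals3bp had 1302, 1178, 1116 and 1236 CPM with LPS in WT and 906, 939.8, 911 and 882 in KO samples, and 357, 356, 416 and 465 in untreated KO samples. The LPS levels of Lgals3bp did not overlap between genotype labels and the untreated levels did. Each of these 2 calls ended when any 1 of several libraries was left out (edgeR). For Lgals3bp they included untreated WT replicate 1 (adjusted p 0.0874), WT LPS replicate 1 (0.0735) and KO LPS replicate 1 (0.0531). For Phf11b they included untreated WT replicate 1 (0.0525) and untreated KO replicate 3 (0.0537). Without untreated WT replicate 1, or untreated KO replicate 3 or 4, 1 gene was called, without untreated KO replicate 1 or 2, 8 and 9 were, and without untreated WT replicate 4, 11 were.

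Members of 1 family that lie side by side can share reads. Ifit3 and Ifit3b, with starts 24439 bases apart on chromosome 19 and the shared promoter run printed above, had LPS responses of 6.98 ± 0.27 and 6.54 ± 0.22 in WT cells, but 590.5 and 45.9 CPM per kilobase. Oas1a and Oas1g, with starts 19908 bases apart on chromosome 5, had LPS responses of 3.25 ± 0.11 and 3.98 ± 0.17 and levels of 321 and 139 CPM per kilobase. Mx1 and Mx2 were at 272 and 40.2 CPM per kilobase. RSEM, named in the submitters' processing notes, shares out reads that map to several genes, so the split between such copies is uncertain, and their values are not independent of each other. Dhx58, Oasl1 and Eif2ak2 overlap a tested gene on the other strand, and whether the counting used strand is not given in the sources used here.

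The ligands of the pathway were scarce. Of 17 listed type I interferon genes 13 were in the table and 1, Ifnb1 (interferon beta), passed the filter. Its raw counts in replicates 1 to 4 were 0, 0, 0 and 2 in untreated WT cells, 39, 35, 42 and 41 with zymosan and 24, 23, 29 and 30 with LPS, and 0, 0, 0 and 0, 45, 39, 40 and 48 and 26, 21, 31 and 34 in the same KO groups. These are very low numbers for libraries of this depth, and the other 12 genes had at most 4 counts in any sample. Depth-adjusted Ifnb1 counts were 78.0 times the untreated ones with zymosan in WT (95% exact interval 21.2 to 650.1) and 53.5 times with LPS (14.5 to 448). KO samples had 0 counts untreated, so no ratio could be formed. The lower limits of their 95% exact intervals were 51.8-fold with zymosan and 31.4-fold with LPS. Against a floor of 3 counts over the untreated group, KO counts were 64.4-fold higher with zymosan and 39.3-fold with LPS. The level was not higher with LPS than with zymosan: the ratio of LPS over zymosan was 0.686 in WT (0.531 to 0.883) and 0.610 in KO samples (0.476 to 0.778), intervals that cover counting error only. The edgeR test called the lower LPS value in KO samples (-0.74 ± 0.22, adjusted p 0.00905) and not in WT (-0.52 ± 0.22, adjusted p 0.061). Between KO and WT samples with LPS the ratio was 1.06 (0.804 to 1.39), and with zymosan 1.19 (0.953 to 1.49). Among the 38 genes, 36 were called higher with LPS than with zymosan in WT (21.9% of all tested genes). With LPS, 27 were called lower in KO than in WT samples (18.2%). Only mRNA was measured, at a time that the labels do not give. The part of Ifnb1 in these differences was not tested.

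Receptor and ISGF3 genes rose with the list: 6 of 6 (Ifnar1, Ifnar2, Jak1, Tyk2, Stat2, Irf9) were called higher with zymosan and with LPS in WT cells, where 34.3% and 35.9% of all tested genes were. Stat2 was at 76.6, 76.7, 84.1 and 94.8 CPM untreated, 465, 514, 458 and 489 with zymosan and 726, 670.1, 668 and 708 with LPS. It rose by 3.06 ± 0.08 and Irf9 by 1.26 ± 0.06 with LPS. Between LPS and zymosan 6 of 6 were called higher with LPS in WT (median 0.29; 21.9% of all tested genes) and 3 of 6 in KO samples (20.0%). Between KO and WT samples with LPS 4 of 6 were called lower (18.2% of all tested genes): Stat2 (-0.28 ± 0.07), Ifnar1 (-0.18 ± 0.04), Ifnar2 (-0.18 ± 0.04) and Tyk2 (-0.12 ± 0.04). Irf9 was not (-0.13, 95% interval -0.25 to -0.01).

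The 13 genes that lead to interferon production moved in different directions, 9 higher and 2 lower with zymosan and 7 higher and 2 lower with LPS in WT cells. Of all tested genes 34.3% were called higher and 35.9% lower with zymosan, and 35.9% higher and 39.7% lower with LPS. Irf7, the transcription factor that amplifies interferon production and is itself interferon-induced, had 22.8, 22.6, 28.8 and 35.3 CPM untreated, 561, 684, 623 and 672 with zymosan and 1358, 1195, 1125 and 1253 with LPS in WT cells, and 754, 778, 779 and 756 with LPS in KO samples. It was 0.96 ± 0.15 higher with LPS than with zymosan in WT and -0.68 ± 0.14 in KO against WT samples with LPS (adjusted p 0.000706), without overlap. Tlr3, the endosomal RNA receptor, had a KO against WT value of -0.76 ± 0.11 with LPS. Irf3, which acts before interferon is made, changed by 0.28 ± 0.05 with LPS and did not pass the test between genotype labels (-0.02, 95% interval -0.12 to 0.08). The LPS receptor gene Tlr4 was -0.69 ± 0.06 with LPS against zymosan in WT cells, and the zymosan receptor gene Clec7a -0.47 ± 0.12, both called lower with LPS.

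Of 8 genes that inhibit interferon signalling, 7 were called higher with each stimulus in WT cells. Of all tested genes 34.3% were called higher with zymosan and 35.9% with LPS. In WT cells 6 of the 8 were called higher with LPS than with zymosan (21.9% of all tested genes), led by Socs1 (0.75 ± 0.12), a feedback inhibitor of Jak kinases. Socs1 (-0.51 ± 0.12) and Socs3 (-0.25 ± 0.05) were lower in KO than in WT samples with LPS.

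Guanylate-binding proteins and immunity-related GTPases respond to interferon gamma as well as to type I interferon. Of 12 tested genes 12 were called higher with LPS than with zymosan in WT cells (median 0.91; 21.9% of all tested genes), led by Iigp1 (1.92 ± 0.15). Between KO and WT samples with LPS 9 were called lower and 1 higher (median -0.43; 18.2% and 15.6% of all tested genes), and in untreated cells 3 were called higher and 0 lower (median 0.17; 4.31% and 5.64%). Of the 12, 5 had a smaller LPS response by the interaction test (5.84% of all tested genes), among them Gbp2 (-0.80 ± 0.16) and Gbp4 (-0.68 ± 0.15).

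The 15 listed inflammatory targets of NF-κB belong to the other arm downstream of these receptors. With LPS against zymosan in WT cells 2 were called higher and 7 lower, with a median of -0.01, where 21.9% of all tested genes were called higher and 24.5% lower. Cxcl1 (-1.70 ± 0.11), Cxcl2 (-1.25 ± 0.09) and Tnf (-1.06 ± 0.07) were lower with LPS. Between KO and WT samples with LPS 13 of 15 were called lower (median -0.49; 18.2% of all tested genes), led by Il6 (-0.98 ± 0.09, adjusted p 6.33e-09), and 11 of 15 had a smaller LPS response in KO samples (5.84%). The lower LPS values in KO samples were thus found in both lists, and no test compared the lists with each other.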

How the data were processed

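Libraries of mRNA from 24 samples (6 groups of 4) were deposited as 1 table of whole-number counts per gene; per the submitters' processing notes the authors used Bowtie2, RSEM 1.2.31, DESeq2 and the build mm10, with no role or order given. Sample groups came from the labels. Gene names and positions were taken from GENCODE M21, which held 37570 of 38887 identifiers (96.6%), and promoter sequences from RefSeq GRCm38.p6. Counts were tested with edgeR 4.0.16 (R 4.3.3): TMM factors (0.880 to 1.19), filterByExpr over 6 groups, 1 mean per group, quasi-likelihood tests, Benjamini-Hochberg adjustment over 14188 genes, and calls at an adjusted p under 0.05. Log2 CPM used a prior count of 2, and the fit was tested on simulated data. Whole-number counts were found where RSEM estimates with decimals had been possible, and they were used unchanged. The genes and lists were chosen with earlier results of these data known. Named genes are all 38, with values in each sample for the 2 largest LPS responses of each role group, the 2 largest and smallest differences between stimuli, and up to 6 called genes of each genotype comparison. Alternatives were DESeq2 1.42.0, its size factors, no filter, only the groups compared, replicate blocks, summed replicate pairs and each library left out. Same-numbered samples had deviations correlated at 0.151 to 0.247 (WT) and 0.125 to 0.205 (KO) between zymosan and untreated groups, and under 0.1 for at least 1 pair elsewhere. Interferon genes Ifna6, Ifna7, Ifna11 and Ifnab, and Gbp5 and Gbp6, were not analysed here, nor were protein sequences. Another gene of the signalling list is not reported here.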

Additional observations from a re-analysis of the deposited data

Results flagged for a closer look

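In 3 of 228 groups of 4 samples, 1 sample lay far from the other 3, and chance alone gives about 1 in 20 groups. Dhx58 was at 41.0 CPM in untreated KO replicate 4, with the others at 34.9 to 35.9. Isg15 was at 919 CPM in WT zymosan replicate 2, with the others at 818 to 834. Trim30a was at 970 CPM in WT LPS replicate 3, with the others at 899 to 910.

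By the interaction test, the response to a stimulus was called smaller in KO samples for 3 genes. On the log2 scale these were Ifitm3 (-0.45 for zymosan and -0.44 for LPS), Phf11b (-0.53 for LPS) and Lgals3bp (-0.48 for LPS). That is 1 of 38 for zymosan, where 0.846% of all tested genes were called smaller, and 3 of 38 for LPS, where 5.84% were. With replicate pairs summed, 0 of the 38 were called for either stimulus. That setting called 0% of all tested genes smaller for zymosan and 0.0282% for LPS, so it could hardly call any gene. The calls of Phf11b and Lgals3bp also ended when single libraries were left out.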

How the results depend on the processing

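Stimulation against untreated cells gave 38 of 38 genes called higher in both genotypes under every alternative. For genes that were called, 0 recomputed values changed direction and 178 no longer passed the threshold. Values of genes not called could change sign, as for Rtp4 in the LPS interaction (-0.03, and 0.20 in replicates 1 and 2 only). With replicate pairs summed, genes called higher with LPS than with zymosan were 27 in WT (14.2% of all tested genes) and 19 in KO samples (11.7%). Genes called lower in KO samples were 6 with LPS (main 27), 2 with zymosan (main 7) and 0 untreated. Of all tested genes 8.12%, 4.12% and 2.07% were. Called higher untreated were 0 (0.846%). The interactions of zymosan, of LPS and with stimulus gave 0, where 0%, 0.0282% and 0% of all tested genes were called lower. The replicate block gave 12 genes for the LPS interaction (main 3) and 5 for the interaction of genotype and stimulus (main 0). In KO samples 1 was lower with LPS than with zymosan (main 0). Of all tested genes, 9.56%, 4.29% and 24.4% were called lower in these 3 comparisons. The replicate block nested in genotype gave 10 and 5, 1 lower with LPS in each genotype, and 2 lower in KO samples untreated and for the zymosan interaction (main 1 each). The replicate block changed no other count of members by over 1.5 times. A term for replicate pairs gave 12 for the LPS interaction, 5 for the interaction with stimulus, 2 higher in untreated KO samples and 1 lower with LPS in KO samples. Fitting the groups compared only gave 14 lower in KO samples with zymosan, 0 lower untreated, 0 for the zymosan interaction and 1 for the interaction with stimulus. With no filter these were 0 lower untreated, 5 for the LPS interaction and 1 for the interaction with stimulus; DESeq2 gave 5 for the LPS interaction and 24 lower in KO samples with LPS. Replicates 1 and 2 only gave 35 lower with zymosan (17.8% of all tested genes), and 16 lower and 4 higher untreated (11.9% and 11.2%). They gave 10 lower and 1 higher for the zymosan interaction (4.64% and 4.06%), and 17 lower for the LPS interaction (11.2%). For the interaction with stimulus 11 were lower and 1 higher (6.28% and 5.34%). In each genotype 1 was lower with LPS than with zymosan (24.9% in WT and 23.5% in KO samples). Replicates 3 and 4 only gave 5 higher and 0 lower untreated (4.48% and 4.93% of all tested genes). For the 3 interactions they gave 0, 13 and 8 lower (0.803%, 7.02% and 2.83%). Shares for the other settings are not given here. Leaving out 1 library gave 20 to 27 genes lower in KO samples with LPS, 5 to 8 with zymosan, 0 to 9 lower and 1 to 2 higher untreated, 1 to 11 for the LPS interaction and 0 to 1 for the interaction with stimulus. It gave 36 in WT and 26 to 33 in KO samples higher with LPS than with zymosan, and 0 to 1 lower in each. The cause of these changes was not tested. The settings with replicate pairs and the interaction with stimulus were chosen after seeing the data, apart from the summed pairs. The labels do not say if same-numbered samples were paired. Their deviations correlated at 0.151 to 0.247 (WT) and 0.125 to 0.205 (KO) between zymosan and untreated groups. In other comparisons the lowest pair was weaker, as for LPS against zymosan in WT (-0.041 to 0.115) and KO against WT untreated (0.02 to 0.134). Of 24 samples, 12 correlated best with their own number. Depth limits Ifnb1, at 0 to 48 counts a sample, but not the 38 genes, the lowest of which, Ifit3b, had 151 counts over the 4 untreated KO samples.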
